A study of Drosophila melanogaster with 12 samples.

Results

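The genes described here are 9 genes of RNA interference and double-stranded RNA handling in Drosophila melanogaster: Dcr-2, r2d2, AGO2, blanks, loqs, drosha, pasha, Dcr-1 and AGO1. They were chosen by gene symbol from a table of normalised abundance per gene, with earlier results of these data known. All 9 were among the 9367 genes tested. The abundance of Dcr-2 was known when they were chosen, since the driver stock carries an extra copy of this gene. Its level beside that of other genes is therefore given as a description with no test. Its differences between groups were fitted like those of the other genes, and it is counted among the 9. RNA was read from the fat body, the organ in which larvae store fat and make secreted proteins, of female larvae in the wandering stage of the third instar, in 12 libraries that form 4 groups of 3. The svp RNAi-labelled libraries came from VDRC stock 100762, which carries a GAL4-driven hairpin against seven-up (svp), and the control libraries from VDRC stock 60100. Both stocks were crossed to flies with UAS-Dcr2 on the X chromosome and r4-GAL4, a driver active in fat body, so the control libraries carry the Dcr-2 transgene and the driver too, without the hairpin. Larvae of each genotype ate a high-sugar diet with 0.7 M sucrose or a control diet with 0.15 M sucrose. Nothing in the labels tells whether the 3 libraries of a group were made from different animals, and p-values then cover only the spread among these libraries, which may be technical.

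RNA interference in the fly runs along branches that share a design: a ribonuclease of the Dicer family cuts double-stranded RNA into short duplexes, and an Argonaute protein loaded with a strand of such a duplex finds and silences matching RNA. Dicer-2, with its partner R2D2, makes and loads small interfering RNAs (siRNAs) from viral or other long double-stranded RNA and from transgenic hairpins, and Argonaute 2 cuts the targets. MicroRNAs (miRNAs) are cut from nuclear transcripts by Drosha and its partner Pasha, then by Dicer-1 with an isoform of Loquacious, and are loaded mostly into Argonaute 1. UAS-Dcr2 is commonly added to driver stocks to strengthen the effect of a hairpin. In the table there is a single value for Dcr-2, in which RNA of the transgene and of the endogenous gene cannot be told apart.

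The recovered reads numbered 4376264 to 6555713 per library over the 9367 genes, with control replicate 3 on the control diet the shallowest. The gene targeted by the hairpin went against the label. On high sugar, svp was at 1712, 1480 and 2180 in the svp RNAi-labelled libraries, against 631, 628 and 664 in control, a log2 difference of 1.46 ± 0.16 (SE; limma adjusted p = 2.2e-05). In larvae on the control diet it was at 1658, 1665 and 1351 in the svp RNAi-labelled libraries, against 516, 477 and 373 in control (log2 1.78 ± 0.16, limma adjusted p = 6.8e-06). Whether RNA of the hairpin was counted as svp, or the genotype labels were exchanged, was not tested and cannot be told from the files. An exchange would turn every genotype direction given here, and would swap the genotype in which blanks differed between diets. The genotype is therefore named by its label throughout, and a direction given for it is that of the label. Among the other genes of the stocks, y and tio passed the test in none of the 5 contrasts. The gene w matched none of the genes kept and so was not analysed. The 8 fat body markers were abundant in every library but differed by genotype. They took 23.6% to 26.1% of reads in high-sugar svp RNAi-labelled libraries and 28.3% to 30.3% in high-sugar control, with 4 of 8 called lower. On the control diet they took 22.6% to 26.2% in svp RNAi-labelled libraries and 27.3% to 32.2% in control, with 3 of 8 called lower. The 12 muscle markers took 0.252% to 0.289% of reads in high-sugar svp RNAi-labelled libraries and 0.41% to 0.56% in control, with 7 of 12 called lower. On the control diet they took 0.218% to 0.295% in svp RNAi-labelled libraries and 0.475% to 0.596% in control, with 12 of 12 called lower. The 8 hemocyte markers took 0.0434% to 0.0552% in high-sugar svp RNAi-labelled libraries and 0.0636% to 0.0738% in high-sugar control, with 2 of 8 called lower and 2 called higher. Most of their sum there is Pxn, at 1833 of 2679 in svp RNAi-labelled libraries and 3054 of 3988 in control. On the control diet the hemocyte shares overlapped between genotypes, with 1 marker called lower and 1 called higher. The genotypes do not overlap in the fat body and muscle shares on either diet, nor in the hemocyte share on high sugar, and the part of these shares in the results on the 9 genes was not tested. In whole tissue, fewer cells of a type and less RNA per cell cannot be told apart.

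Levels of the 9 genes were set against each other per kilobase of exon, after the reads of all 12 libraries had been put on a common scale. Over the 12 libraries Dcr-2 averaged 7124 scaled reads per kb, AGO2 259, AGO1 101, loqs 41.8, r2d2 37.0, Dcr-1 36.3, drosha 24.6, pasha 18.1 and blanks 7.51. Dcr-2 was thus far above every other gene of the set, and 20.5 to 33.8 times the level of AGO2, its Argonaute partner, in group means per kb. It ranked 66th of 9250 genes with a known length in the high-sugar svp RNAi-labelled libraries, 85th in high-sugar control, 57th in control-diet svp RNAi-labelled libraries and 78th in control-diet control. Its share of all reads lay between 0.39% and 1.02% in single libraries. The median gene stood at 35.4 to 36.3 scaled reads per kb in the 4 groups, so r2d2, loqs and Dcr-1 lay near the middle of the table, while AGO2 and AGO1 lay above it and drosha and pasha below. The steps from Dcr-2 to AGO2, from AGO2 to AGO1, from AGO1 to loqs and from Dcr-1 to drosha held in all 12 libraries. The neighbours loqs and r2d2 kept their order in 9 of 12 libraries, r2d2 and Dcr-1 in 6, and drosha and pasha in 10, and over the 12 libraries the ranges of each of these pairs overlap. Between pasha and blanks the order held in 10 libraries and depended on the group: per kb, pasha stood at 15.3 and blanks at 2.34 in high-sugar svp RNAi-labelled libraries, at 20.2 and 21.3 in high-sugar control, at 18.4 and 4.39 in control-diet svp RNAi-labelled libraries, and at 18.4 and 2.04 in control-diet control. Lengths join all exons of a gene in a BDGP6 annotation, while the deposited values are on dm3.

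**Figure D1:**
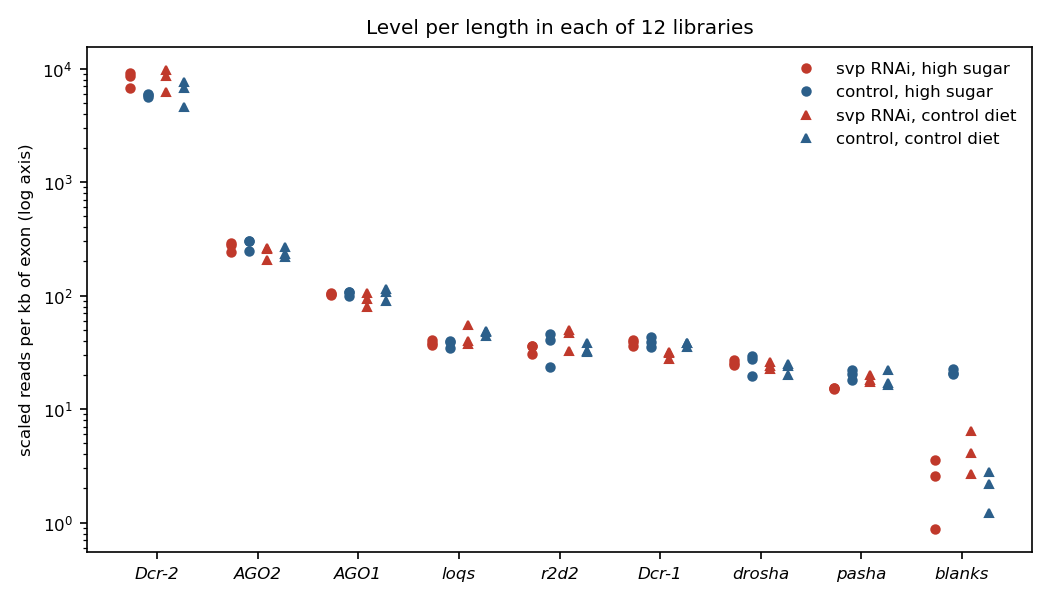
Scaled reads per kb of exon (log axis) of the 9 genes in each of the 12 libraries, in order of their mean; red marks svp RNAi-labelled libraries, blue control, circles high sugar and triangles the control diet. Dcr-2 stands near 7124 on average, more than an order of magnitude above AGO2, and blanks separates the high-sugar control libraries from the other 9.

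Spread between libraries differed among the 9 genes. The highest library was 1.43 times the lowest for AGO1, 1.46 for pasha, 1.48 for AGO2, 1.52 for drosha, 1.57 for Dcr-1 and 1.58 for loqs. This ratio was 2.11 for r2d2, 2.12 for Dcr-2 and 26.1 for blanks. Counting error alone gives a relative error of 3.1% to 4.56% for AGO1, with 480 to 1043 reads per library, and of 9.58% to 15.8% for r2d2, with 40 to 109 reads. For Dcr-2, with 17084 to 59497 reads, it is under 1%, far below its spread between libraries. For blanks, with 1 to 31 reads, it reaches 100% in the shallowest case.

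**Figure D2:**
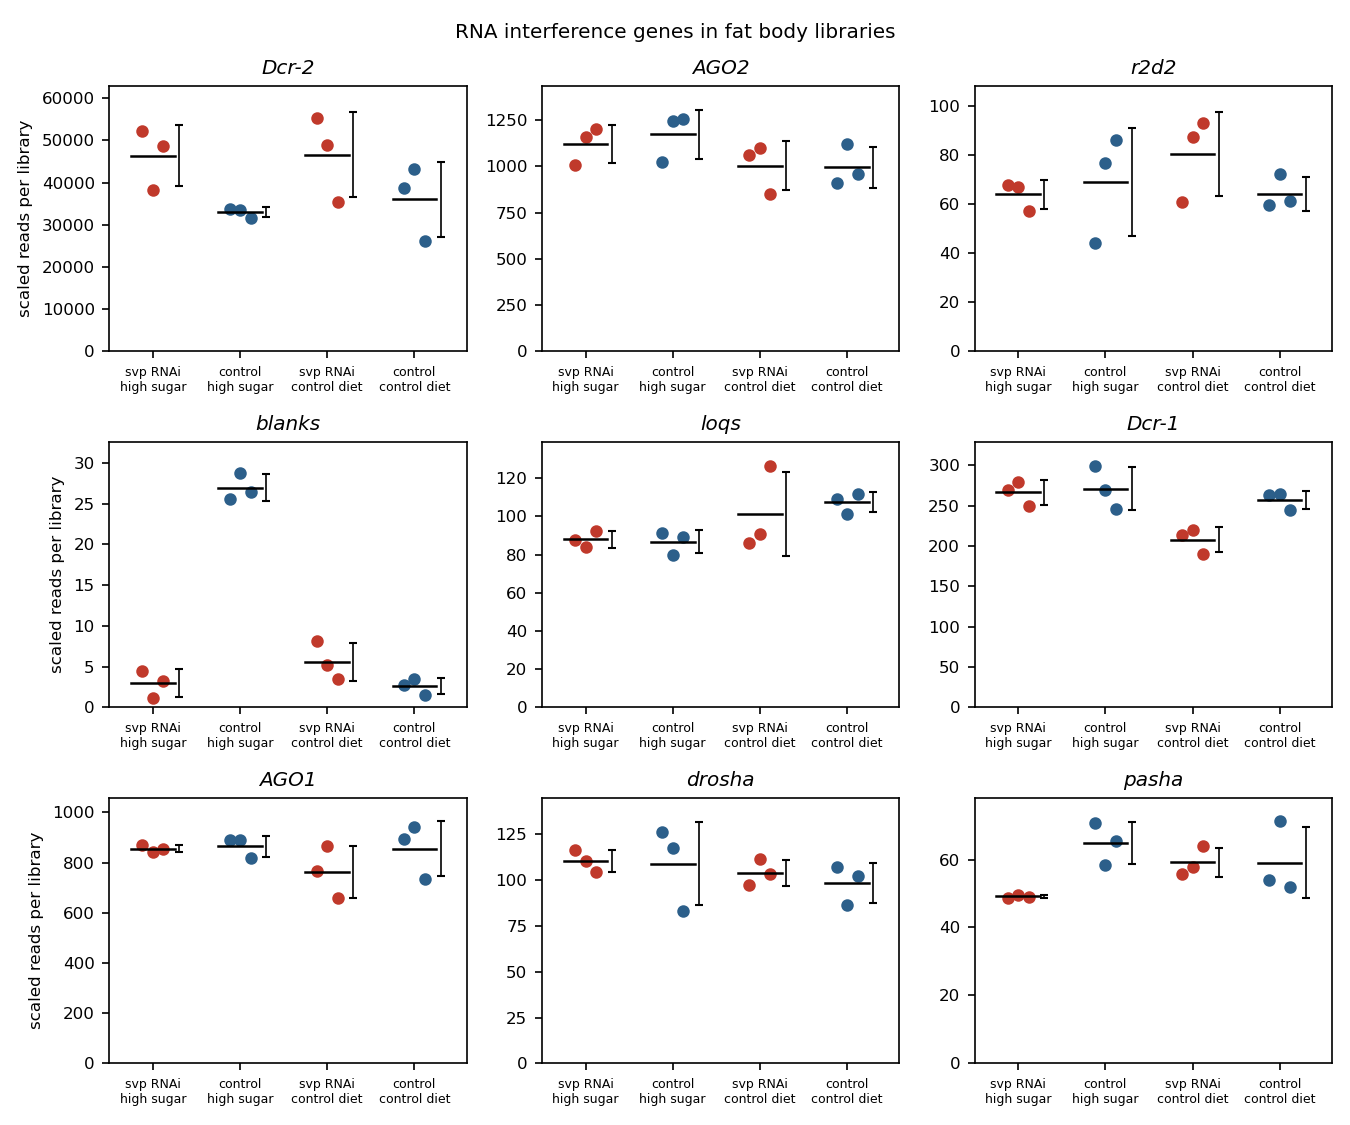
Scaled reads of each of the 9 genes in the 12 libraries, with linear axes from 0; points are libraries, bars group means and error bars SD (n = 3), red for svp RNAi-labelled libraries and blue for control. The control libraries on high sugar hold 25.6 to 28.8 scaled reads of blanks and every other library at most 8.11, while the groups of most other genes overlap.

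Of the 9 genes, blanks was the one that passed the test in any contrast. It encodes a protein that binds double-stranded RNA and is known from the fly testis. On high sugar it was at 4.76, 1.28 and 3.42 in the svp RNAi-labelled libraries, against 26.7, 30.3 and 27.7 in control (normalised abundance, in read-like units). All 3 control libraries lay above all 3 svp RNAi-labelled libraries, and blanks was 7.55-fold lower in the svp RNAi-labelled libraries, a log2 difference of -2.92 ± 0.41 (SE; 95% interval -3.80 to -2.03; limma adjusted p = 0.00026). On the control diet blanks was at 7.91, 5.01 and 3.14 in the svp RNAi-labelled libraries and at 2.64, 3.32 and 1.68 in control. These groups overlap, and the log2 difference of 0.80 (95% interval -0.09 to 1.68) did not pass the test (limma adjusted p = 0.28).

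Set out by diet, blanks rose on high sugar in control and did not pass the test in the svp RNAi-labelled libraries. In scaled reads it was at 25.6, 28.8 and 26.4 on high sugar in control, against 2.75, 3.50 and 1.53 on the control diet, a 7.99-fold difference (95% interval 4.27 to 14.95; log2 3.0 ± 0.42 SE, limma adjusted p = 0.0017). In the svp RNAi-labelled libraries it was at 4.51, 1.103 and 3.27 on high sugar and 8.11, 5.19 and 3.41 on the control diet (log2 -0.78, 95% interval -1.68 to 0.13, limma adjusted p = 0.27). The difference between these diet effects was tested as an interaction (svp RNAi-labelled minus control), and came to -3.71 ± 0.58 (SE; 95% interval -4.97 to -2.46; limma adjusted p = 0.019). Of the 18 genes called for the interaction blanks was the 8th by p, the 2nd by size and the largest fall. The contrasts share libraries: high-sugar control enters the genotype difference on high sugar, the diet effect in control and the interaction, so these values are not separate evidence. The interaction call ended without any 1 of 5 libraries: control replicate 2 (adjusted p = 0.059) or 3 (adjusted p = 0.059) on high sugar, replicate 3 labelled svp RNAi on high sugar (adjusted p = 0.056), and replicate 1 (adjusted p = 0.056) or 2 (adjusted p = 0.052) labelled svp RNAi on the control diet, by the same limma fit. The genotype call on high sugar and the diet call in control held in all 21 alternatives that gave a value.

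In whole reads, blanks had 5, 1 and 4 in the high-sugar svp RNAi-labelled libraries and 25, 31 and 27 in high-sugar control. From the control diet it had 8, 6 and 4 in the svp RNAi-labelled libraries and 3, 3 and 1 in control. Summed over 3 libraries these are 10 reads (95% exact Poisson interval 4.80 to 18.4) in high-sugar svp RNAi-labelled libraries, 83 (66.1 to 103) in high-sugar control, 18 (10.7 to 28.5) in control-diet svp RNAi-labelled libraries and 7 (2.81 to 14.4) in control-diet control, intervals that cover counting error only. Per kb, blanks in high-sugar control stood at 21.3 ± 1.28 (SD, n = 3), the level of pasha and drosha, and in the other 3 groups at 2.04 to 4.39. All fold changes were computed after adding 1 to each value, so that of a gene with so few reads is an underestimate.

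Markers of gonad tissue were set beside blanks because it is known from the testis. The 9 of 19 testis and male genes among those tested, a list drawn up after the data were seen, summed to 513 to 626 in high-sugar svp RNAi-labelled libraries and 502 to 559 in high-sugar control. Those on the control diet summed to 470 to 573 in the svp RNAi-labelled libraries and 265 to 373 in control. The sums overlap between genotypes on high sugar. Between diets in control they do not overlap and were higher on high sugar, as blanks was, at 0.00898% to 0.00957% of reads on high sugar and 0.00402% to 0.00683% on the control diet. The sums of the genotypes on the control diet do not overlap either, with the svp RNAi-labelled libraries higher. A large part of the sum is Mst77F, which averaged 261 of a mean sum of 528 in high-sugar control and 170 of 337 in control-diet control. Of the 9 genes, 1 was called higher for diet in control and 0 lower. The part of gonad tissue in the values of blanks was not tested. Within that list, roX1, a male dosage compensation RNA, was at 60.9 ± 24.2 in high-sugar svp RNAi-labelled libraries and 118 ± 24 in control (SD, n = 3 each; limma adjusted p = 0.046). Rpt6R, a testis proteasome gene, was at 6.15 ± 1.27 in high-sugar svp RNAi-labelled libraries and 20.1 ± 3.26 in control (limma adjusted p = 0.046). In control, topi, a testis transcription factor, was higher on high sugar, with 47.0 ± 6.36 scaled reads against 18.1 ± 5.08 on the control diet (limma adjusted p = 0.02). Between genotypes on the control diet, the spermatid genes Mst87F and Mst77F were higher in the svp RNAi-labelled libraries (log2 1.91 and 0.92, limma adjusted p = 0.0027 and 0.0013). The other 4 of the 9 genes, bol, twe, fzo and mia, passed the test in no contrast. Of 8 germline and gonad markers 4 were tested, and tj, a gonad transcription factor gene, was the one to pass, higher on high sugar in the svp RNAi-labelled libraries (13.6 ± 4.55 scaled reads against 3.87 ± 1.1 on the control diet, limma adjusted p = 0.023). The germline genes vas, nos, bam and osk were looked for by name, matched none of the genes kept, and so were not analysed. Although the larvae were female, roX1 was at 33.2 to 145.8 and Mst77F at 127.5 to 393.8 in single libraries. The source of these reads was not tested. Calls of testis and gonad genes were not followed through the alternative fits.

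Profiles most like that of blanks were searched among 4215 genes with a mean of at least 100 scaled reads, by the root mean square of the difference in centred log2 values over the 12 libraries. The nearest were sad, a steroid hydroxylase gene, at 0.73, CG6296 at 0.84 and CG3868 at 0.89, against a median of 1.298 over all candidates. In sad the group means were 784 scaled reads in high-sugar svp RNAi-labelled libraries, 2216 in high-sugar control, 527 in control-diet svp RNAi-labelled libraries and 310 in control-diet control. CG6296 averaged 107 in high-sugar svp RNAi-labelled libraries, 342 in high-sugar control, 60.4 in control-diet svp RNAi-labelled libraries and 57.9 in control-diet control. CG3868 averaged 169 in high-sugar svp RNAi-labelled libraries, 638 in high-sugar control, 106 in control-diet svp RNAi-labelled libraries and 174 in control-diet control. All 3 were highest in high-sugar control, as blanks was, which follows from the way they were chosen and is not separate evidence. Genes at the low level of blanks itself were outside the search.

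**Figure D3:**
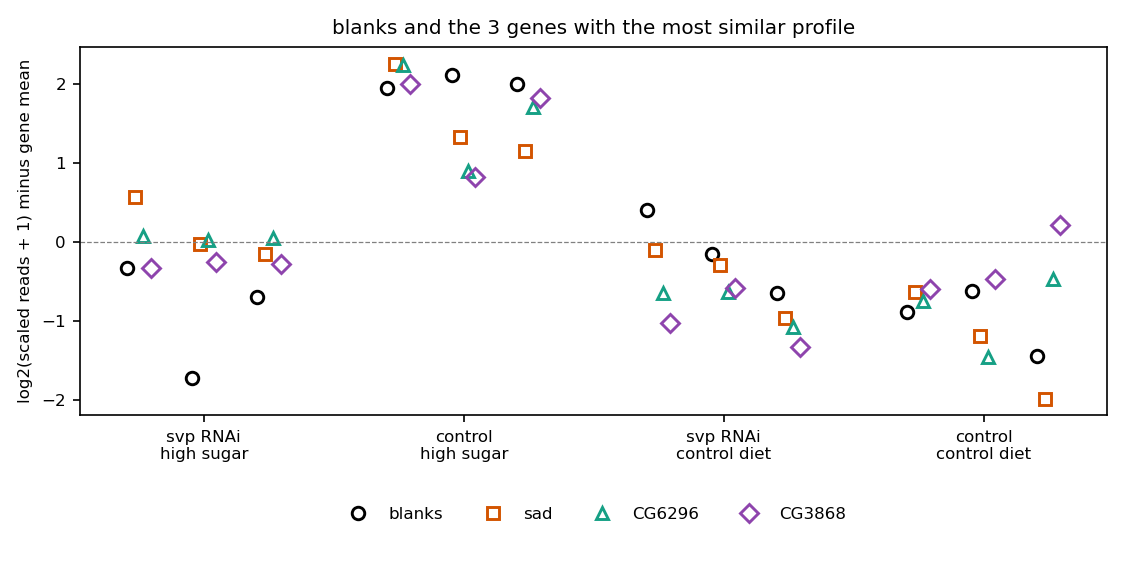
Centred log2(scaled reads + 1) of blanks, sad, CG6296 and CG3868 in the 12 libraries, each symbol a library of the group named under it. In all 4 genes every high-sugar control library lies above the gene's own mean, and blanks in high-sugar svp RNAi-labelled libraries lies below it. The genes other than blanks were chosen for their likeness to it in these same libraries.

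Dcr-2, the siRNA-making Dicer, was at 54696, 40208 and 50785 on high sugar in the svp RNAi-labelled libraries, against 35257, 35193 and 33205 in control. The groups do not overlap on high sugar, with a log2 difference of 0.48 (95% interval -0.04 to 0.999). On the control diet it was at 53810, 47643 and 34325 in the svp RNAi-labelled libraries and 37282, 41265 and 25345 in control, groups that overlap, with a log2 difference of 0.39 (95% interval -0.13 to 0.91). Both intervals include 0, and their upper ends are 1.999-fold on high sugar and 1.88-fold on the control diet. By diet, its scaled reads averaged 32980 ± 1163 on high sugar and 36000 ± 8841 on the control diet in control (log2 interval -0.62 to 0.43), and 46400 ± 7289 on high sugar and 46590 ± 10120 on the control diet in the svp RNAi-labelled libraries (log2 interval -0.52 to 0.53; SD, n = 3 each). The genes with the most similar profile were CG31195 at a distance of 0.14, CG6701 at 0.15 and ClC-c, a chloride channel gene, at 0.15, against a median of 0.36 over the 4215 candidates. CG6701 averaged 672 scaled reads in high-sugar svp RNAi-labelled libraries, 484 in high-sugar control, 615 in control-diet svp RNAi-labelled libraries and 452 in control-diet control. Its order of genotypes is like that of Dcr-2 on both diets, which follows from its choice by likeness and is not separate evidence.

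The partner of Dcr-2, r2d2, which helps load siRNAs into Argonaute 2, was at 70.9, 70.6 and 59.5 on high sugar in the svp RNAi-labelled libraries and 46.2, 81.0 and 90.3 in control. On the control diet it was at 59.2, 85.04 and 90.3 in the svp RNAi-labelled libraries and 57.3, 69.0 and 59.5 in control. The groups overlap on both diets, and the log2 differences were -0.06 (95% interval -0.57 to 0.44) on high sugar and 0.31 (-0.19 to 0.82) on the control diet. AGO2, the siRNA Argonaute, was at 1054, 1217 and 1256 on high sugar in the svp RNAi-labelled libraries and 1065, 1311 and 1317 in control. On the control diet it was at 1033, 1069 and 823 in the svp RNAi-labelled libraries and 876, 1069 and 930 in control. Here too all groups overlap, and the intervals are narrower. They run from -0.36 to 0.23 on high sugar and from -0.28 to 0.32 on the control diet, or 0.78-fold to 1.17-fold and 0.827-fold to 1.24-fold. For diet, AGO2 had log2 intervals of -0.06 to 0.53 in control and -0.13 to 0.46 in the svp RNAi-labelled libraries, and r2d2 of -0.45 to 0.56 and -0.81 to 0.20.

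Profiles near AGO2 were those of cpa, an actin capping gene, at 0.10, CG1703 at 0.10 and Roc1a, a ubiquitin ligase subunit gene, at 0.10, against a median of 0.28. Near r2d2 they were mago, an exon junction complex gene, at 0.17, Sh3beta at 0.17 and HmgZ, a chromatin protein gene, at 0.18, against a median of 0.40. Of these neighbours, cpa averaged 478 scaled reads in high-sugar svp RNAi-labelled libraries, 477 in high-sugar control, 422 in control-diet svp RNAi-labelled libraries and 422 in control-diet control.

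The gene loqs encodes partners of both Dicers. It was at 91.6, 88.2 and 96.5 on high sugar in the svp RNAi-labelled libraries and 95, 83.9 and 93.5 in control, and on the control diet at 83.8, 88.1 and 123 in the svp RNAi-labelled libraries and 105, 97.1 and 108 in control. These groups overlap on each diet, with log2 differences of 0.02 (95% interval -0.32 to 0.36) on high sugar and -0.09 (-0.43 to 0.24) on the control diet. By diet in control, its scaled reads averaged 86.7 ± 6.08 on high sugar and 107 ± 5.26 on the control diet (SD, n = 3 each), groups that do not overlap, but the log2 difference of -0.31 (95% interval -0.64 to 0.03) did not pass the test (limma adjusted p = 0.37). In the svp RNAi-labelled libraries the diet groups overlap (log2 -0.18, 95% interval -0.52 to 0.16). The antisense gene asRNA:CR44599 shares 18.3% of the exon length of loqs, and reads of these cannot be told apart, as no source says that reads were counted by strand. The same holds for r2d2 with Cdc14, at 22.9% of its exon length, and for AGO2 with CG7739, at 7.65%. Smaller overlaps link pasha to kek6 and AGO1 to CG33155 and mRpL53. Where blanks, Dcr-1 and drosha lie, the annotation has no overlapping exon of another gene.

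In the miRNA branch, drosha, the nuclear ribonuclease, was at 122, 116 and 109 on high sugar in the svp RNAi-labelled libraries and 131, 124 and 87.4 in control, and on the control diet at 94.7, 109 and 99.9 in the svp RNAi-labelled libraries and 103, 82.7 and 99.1 in control. All its groups overlap. Its log2 differences were 0.04 (95% interval -0.32 to 0.39) between genotypes on high sugar, 0.09 (-0.26 to 0.45) between genotypes on the control diet, 0.13 (-0.23 to 0.48) between diets in control and 0.09 (-0.27 to 0.44) between diets in the svp RNAi-labelled libraries. Its partner pasha was at 51.0, 52.2 and 51.2 on high sugar in the svp RNAi-labelled libraries, against 73.6, 61.5 and 68.8 in control. These groups do not overlap, with a log2 difference of -0.39 (95% interval -0.74 to -0.04) that did not pass over all genes (limma adjusted p = 0.13). For pasha on the control diet the values were 54.3, 56.3 and 62.1 in the svp RNAi-labelled libraries and 52.0, 67.8 and 50.9 in control. There the groups overlap and the log2 difference was 0.03 (95% interval -0.32 to 0.37), and the interaction of -0.42 (95% interval -0.91 to 0.08) did not pass (limma adjusted p = 0.49). By diet in the svp RNAi-labelled libraries, pasha averaged 49.1 ± 0.44 scaled reads on high sugar and 59.2 ± 4.27 on the control diet (SD, n = 3 each). Those groups do not overlap, but the log2 difference of -0.26 (95% interval -0.62 to 0.09) did not pass (limma adjusted p = 0.35), and in control it was 0.14 (95% interval -0.21 to 0.50).

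Dcr-1, the miRNA-making Dicer, was at 208, 214 and 184 on the control diet in the svp RNAi-labelled libraries, against 254, 253 and 238 in control. The groups do not overlap, and the log2 difference of -0.30 (95% interval -0.55 to -0.05) did not pass over all genes (limma adjusted p = 0.15). With high sugar it was at 282, 294 and 260 in the svp RNAi-labelled libraries and 312, 283 and 258 in control, groups that overlap (log2 -0.02, 95% interval -0.28 to 0.23). In the svp RNAi-labelled libraries, Dcr-1 averaged 266 ± 15.6 scaled reads on high sugar and 208 ± 15.6 on the control diet (SD, n = 3 each), again without overlap, with a log2 difference of 0.36 (95% interval 0.10 to 0.61; limma adjusted p = 0.076). In control the diet difference was 0.07 (95% interval -0.18 to 0.32), and the interaction of 0.27 (95% interval -0.08 to 0.63) did not pass (limma adjusted p = 0.53). AGO1, the miRNA Argonaute, was at 909, 884 and 890 on high sugar in the svp RNAi-labelled libraries and 927, 937 and 858 in control. On the control diet it was at 748, 842 and 636 in the svp RNAi-labelled libraries and 861, 898 and 713 in control. All groups of AGO1 overlap, and its log2 intervals, -0.29 to 0.25 on high sugar and -0.42 to 0.12 on the control diet for genotype, were narrower than those of the other genes except Dcr-1. Between diets AGO1 differed by 0.02 (95% interval -0.25 to 0.29) in control and 0.17 (-0.10 to 0.44) in the svp RNAi-labelled libraries.

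Counted over the set, 1 of 9 genes was lower in high-sugar svp RNAi-labelled libraries, where 13.4% of the 9367 genes were called, and 0 of 9 passed on the control diet, where 8.56% were called. For diet, 1 of 9 rose in control, where 1.9% were called, and 0 of 9 passed in the svp RNAi-labelled libraries, where 8.46% were called. The interaction called 1 of 9, against 0.192% of all genes. Each of these counts of 1 is blanks. The 9 genes were chosen with earlier results of these data known, so these counts are not independent of that choice. Groups without overlap occurred for 3 of 9 genes between genotypes on high sugar (31.7% of all genes) and 1 of 9 on the control diet (26.1%), and for 2 of 9 between diets in control (19.8%) and 2 of 9 in the svp RNAi-labelled libraries (31.0%). These shares of the 9 lie near or below those of all genes. The median log2 difference of the 9 was -0.03 for genotype on high sugar (all genes -0.01), 0.03 for genotype on the control diet (all genes 0.01), 0.07 for diet in control (all genes -0.01) and 0.01 for diet in the svp RNAi-labelled libraries (all genes -0.01).

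**Figure D4:**
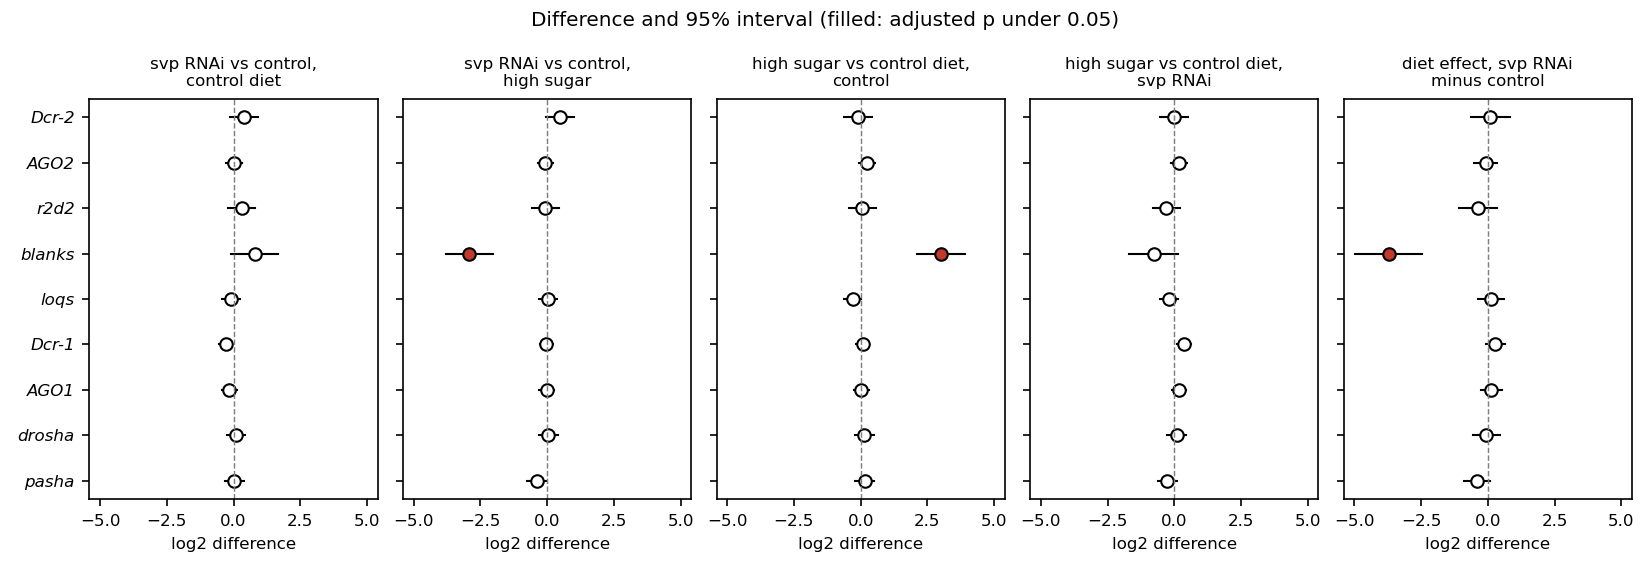
Log2 difference of each of the 9 genes with its 95% interval in the 5 contrasts; filled points passed the test at an adjusted p under 0.05 over all genes. The filled points are those of blanks, at -2.92 for genotype on high sugar, 3.0 for diet in control and -3.71 for the difference in diet effect.

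Other genes of small RNA pathways were taken from 5 lists. Beside them, 0.192% of all genes were called for the interaction and 1.9% to 13.4% in the other contrasts, with all-gene medians from -0.015 to 0.006. Of 13 genes that act with miRNAs in processing, deadenylation, decapping and decay, all were tested and 0 passed in any of the 5 contrasts, with medians from 0.04 to 0.09. Of 22 genes of the piRNA pathway, which silences transposons mainly in the gonad, 18 were tested and 0 passed, with medians from -0.28 to -0.02. Of 16 siRNA cofactors, among them the chaperones and nucleases that load and mature the silencing complex, 15 were tested and 1 passed in 1 contrast. This was trsn, a subunit of the nuclease C3PO, with 65.9, 46.3 and 49.1 scaled reads on high sugar in the svp RNAi-labelled libraries, against 83.1, 93.4 and 117 on the control diet. The diets do not overlap in trsn (log2 -0.85 ± 0.24 SE, limma adjusted p = 0.043), but its call ended without any 1 of 6 libraries, with adjusted p up to 0.15 without replicate 3 labelled svp RNAi on the control diet; the other 5 were control replicate 1 and replicates 1 and 2 labelled svp RNAi on the control diet, and replicates 2 and 3 labelled svp RNAi on high sugar. The trsn call also ended with the replicate number as a block (limma adjusted p = 0.052), on the deposited values (adjusted p = 0.054) and without an intensity trend (adjusted p = 0.073).

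Of 8 other proteins that bind or edit double-stranded RNA, 7 were tested and Adar passed. Adar, which edits adenosines in double-stranded RNA, was at 103, 102 and 77.3 on high sugar in the svp RNAi-labelled libraries, against 135, 155 and 147 in control. The genotypes do not overlap on high sugar, and Adar was 1.55-fold lower in the svp RNAi-labelled libraries (log2 -0.63 ± 0.15 SE, limma adjusted p = 0.0095; 0.058 without replicate 3 labelled svp RNAi). By diet in the svp RNAi-labelled libraries it had 98.4, 97.0 and 74.4 scaled reads on high sugar and 122, 140 and 130 on the control diet (log2 -0.54 ± 0.15 SE, limma adjusted p = 0.036), and this call ended without any 1 of the 6 libraries of that comparison (limma adjusted p = 0.051 to 0.16), on the deposited values (0.062), without an intensity trend (0.056) and in a fit of only these 6 libraries (0.07). On high sugar 4 of 7 neuron markers were lower too and 1 was higher in the svp RNAi-labelled libraries. The neuron markers elav, futsch, VGlut and Appl fell by 1.01, 0.92, 1.29 and 0.79 on the log2 scale, while Syt1 rose by 1.25. The neuron list summed to 3764 to 4807 in high-sugar svp RNAi-labelled libraries and 2323 to 2640 in high-sugar control, most of it Syt1, and its part in Adar was not tested.

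Of 10 genes of the antiviral response, 7 were tested. The virus-induced gene vir-1 was at 946, 962 and 871 on high sugar in the svp RNAi-labelled libraries, against 1814, 2037 and 2414 in control, 2.24-fold lower (log2 -1.16 ± 0.15 SE, limma adjusted p = 0.00011). CG1667, now named Sting, the receptor of cyclic dinucleotides, was at 236, 171 and 165 on the control diet in the svp RNAi-labelled libraries, against 128, 98.2 and 81.2 in control, 1.86-fold higher (limma adjusted p = 0.017). Neither gene's groups overlap in these comparisons. The call of CG1667 ended without control replicate 2 (limma adjusted p = 0.057) or 3 (0.075), or replicate 1 labelled svp RNAi (0.087), all on the control diet. The antiviral factor pst rose on high sugar in both genotypes: it had 1319, 1341 and 1213 scaled reads on high sugar and 920, 600 and 707 on the control diet in the svp RNAi-labelled libraries (log2 0.82 ± 0.15 SE, limma adjusted p = 0.0049). In control it had 1348, 1228 and 1476 on high sugar and 715, 705 and 852 on the control diet (log2 0.84 ± 0.15 SE, limma adjusted p = 0.0078). The autophagy adaptor gene ref(2)P had 686, 729 and 881 scaled reads on high sugar and 506, 384 and 506 on the control diet in control (log2 0.72 ± 0.15 SE, limma adjusted p = 0.02), a call that ended without control replicate 3 on high sugar (0.092) or control replicate 2 on the control diet (0.091), and without an intensity trend (0.067). The list's median log2 difference was 0.34 for genotype on the control diet, -0.06 for genotype on high sugar, 0.72 for diet in control and 0.03 for diet in the svp RNAi-labelled libraries, against all-gene medians from -0.015 to 0.006. For diet in control 2 of 7 were called (1.9% of all genes), and 1 of 7 in each other contrast of genotype or diet (8.46% to 13.4%). For the interaction 0 of 7 were called.

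**Figure D5:**
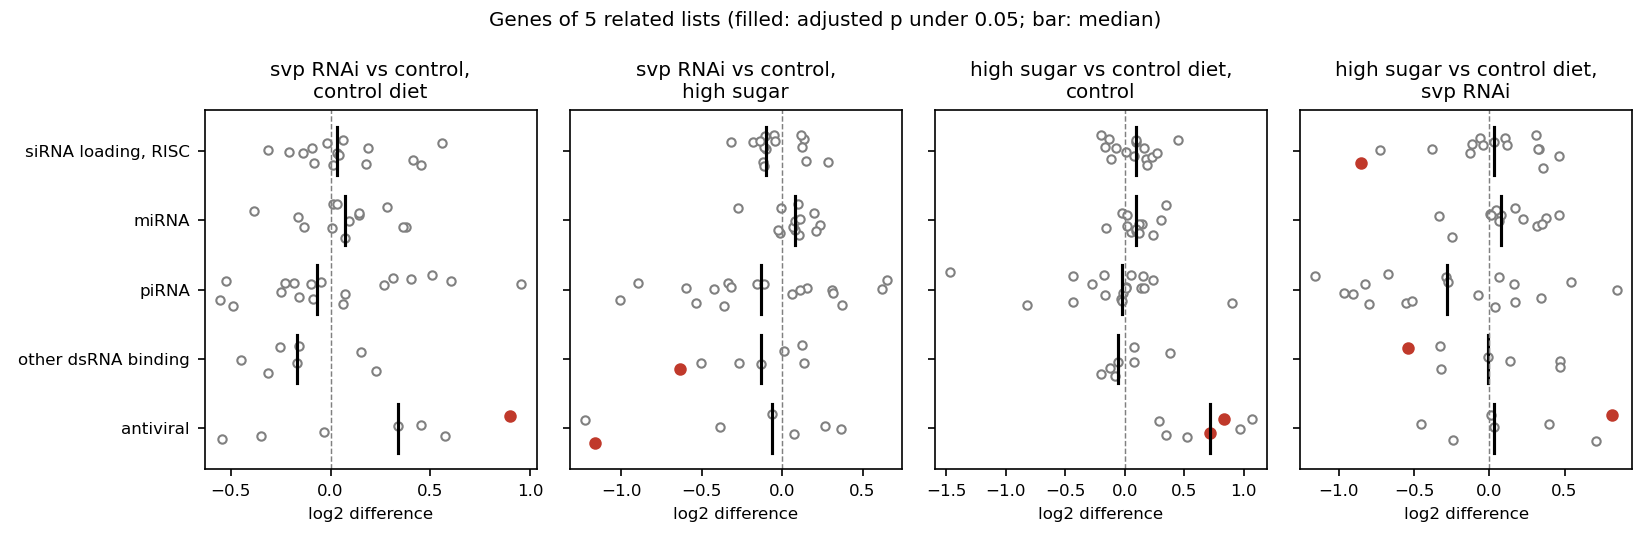
Log2 differences of the genes of 5 related lists in the 4 contrasts of genotype and diet; filled points passed the test at an adjusted p under 0.05 over all genes, bars are list medians. The filled points are trsn, Adar, CG1667, vir-1, ref(2)P and pst, and the miRNA and piRNA lists hold none.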

How the data were processed

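Per the submitters' processing notes, the tools named are Bowtie 0.12.7, TopHat 1.3.2, Cufflinks 1.1.0 and edgeR, and the build is dm3; which counter, annotation, strand setting and filters the authors used is not given in the sources used here. Values were deposited as a signal per gene. Judged from the values alone, they look like reads adjusted towards a common library size, separately for each diet. Their totals per library still ran from 4663394 to 6490130. Inverting that adjustment turned at least 99.84% of values with a group mean under 12 into numbers within 0.1 of a whole read. It did so for at least 98.27% of those with means from 12 to 20, a range that played no part in finding the library factors. Of the deposited values under 12, at most 66.3% of a library were that close. Values with group means above 20 were not checked in this way, so their recovered reads rest on the assumed adjustment. The inversion was also tested on data simulated with that same adjustment, which cannot show that the deposited values were made so. The table held 9527 rows, of which 156 shared a name without regard to case and 4 had numbers as names; 9367 genes were kept, and a mean of at least 1 removed 0 of them. Low genes carry large counting error, and no gene was at 0 in any library.

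Tests were made on log2(value + 1) with limma 3.58.1 (R 4.3.3), using an intensity trend and 4 group means over 12 libraries. P-values were adjusted by Benjamini-Hochberg over all 9367 genes, and a call needs an adjusted p under 0.05. For genotype and for the interaction the deposited values served. Diet contrasts used recovered reads on a joint median-of-ratios scale ("scaled reads"), because the deposited values shift the median gene by 0.10 (log2) between diets; after scaling it is -0.01. A count test was not run, and limma voom on the recovered reads was an alternative. Lengths are joined exons of Ensembl 115 (BDGP6), found for 9250 genes, of which 7013 matched a current symbol and 2237 a single synonym; no coordinates or sequences are given.

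The 9 genes and the lists were chosen with earlier results of these data known. Genes named are the 9, svp and the stock genes, called genes of a list (up to 4 per direction) and the 3 most similar profiles; marker lists other than those beside a result are given as sums or left out. Alternatives were other pseudocounts (0.5 and 5), filters, scalings, variance models, a replicate block and leaving out each library in turn.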

Additional observations from a re-analysis of the deposited data

Results flagged for a closer look

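The diet effect on blanks differed between the genotypes by the interaction test itself: taken as svp RNAi-labelled minus control, it was -3.71 on the log2 scale (limma adjusted p = 0.019 over 9367 genes). Since blanks was chosen with earlier results of these data known, this value is not independent of that choice. In control, blanks had 83 reads over 3 libraries on high sugar and 7 on the control diet. In the svp RNAi-labelled libraries it had 10 on high sugar and 18 on the control diet, a difference that did not pass the test by itself (limma adjusted p = 0.27). The cause was not tested.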

How the results depend on the processing

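For blanks, the genotype difference on high sugar stayed called in 21 of 21 alternatives that gave a value (log2 -3.20 to -2.05, limma adjusted p = 3.9e-05 to 0.002), the diet effect in control in 21 of 21 (log2 2.08 to 3.20, adjusted p = 0.00043 to 0.011), and the interaction in 15 of 20 (adjusted p = 0.0044 to 0.059). Leaving out each library kept that call in 7 of 12 fits (log2 -3.999 to -3.33, 0 to 1 of the 9 genes called). A filter on a mean of at least 10 removes blanks, and leaves 0 of the 9 called for genotype on high sugar, for diet in control and for the interaction.

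Genes called for diet in control, 178 in the reported fit, numbered 307 on the deposited values, 101 without an intensity trend and 103 to 236 without single libraries (108 and 117 without control-diet control replicates 2 and 3, 103 without high-sugar control replicate 3). For diet in the svp RNAi-labelled libraries, 792 became 1283 on the deposited values, with 1 of the 9 genes called (Dcr-1, log2 0.47, limma adjusted p = 0.021), 479 without a trend and 273 to 879 without single libraries (457 and 376 without replicates 2 and 3 labelled svp RNAi on the control diet, 478, 518 and 273 without replicates 1, 2 and 3 on high sugar). For the interaction, 18 became 28 with a pseudocount of 5, 10 without a trend and 6 to 30 without single libraries, 9 of which moved it by over 1.5 times: on the control diet replicates 1 (10), 2 (8) and 3 (30) labelled svp RNAi and control replicate 2 (7), on high sugar replicates 1 (9) and 3 (6) labelled svp RNAi and control replicates 1 (28), 2 (6) and 3 (6). For genotype on high sugar, 1255 became 785 to 1355 without single libraries (785 without replicate 3 labelled svp RNAi, 806 without control replicate 3). Among list genes, vir-1 and both calls of pst held in 22 of 22 alternatives, CG1667 and ref(2)P in 19, Adar in 21 for genotype and 13 for diet, and trsn in 13.

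Log2 differences of members that did not pass changed sign without single libraries, none of them called. For genotype on the control diet the ranges were -0.051 to 0.14 for AGO2, -0.047 to 0.155 for pasha, -0.006 to 0.155 for drosha and -0.26 to 0.009 for loqs. For genotype on high sugar they were -0.092 to 0.044 for Dcr-1, -0.35 to 0.12 for r2d2, -0.034 to 0.055 for loqs, -0.059 to 0.005 for AGO1, -0.14 to 0.15 for drosha and -0.16 to 0.013 for AGO2. For diet in control they were -0.31 to 0.052 for Dcr-2, -0.14 to 0.34 for r2d2, -0.083 to 0.096 for AGO1 and -0.001 to 0.14 for Dcr-1. For diet in the svp RNAi-labelled libraries the range was -0.18 to 0.14 for Dcr-2. For the interaction it was -0.099 to 0.298 for Dcr-2 and -0.23 to 0.058 for drosha. With quantile normalization, diet in control was 0.21 for Dcr-2 and -0.018 for AGO1, and on the deposited values 0.026 for Dcr-2. The cause was not tested.

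Same-numbered libraries of different groups deviated from their group means with correlations of -0.19 to 0.17 over 18 pairs, of which 2 were over 0.1. Weak correlations of deviations from means of 3 libraries cannot tell whether the replicate numbers pair the samples. With the number as a block, genes called were 801 for genotype on the control diet, 1201 on high sugar, 187 for diet in control, 761 in the svp RNAi-labelled libraries and 25 for the interaction, blanks kept its 3 calls, and trsn lost its call (limma adjusted p = 0.052). In 7 of 18 comparisons a library correlated best with its own number. Depth limits blanks and the other genes with few reads most.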
